A study of Mus musculus with 9 samples.

Results

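Genes of mitosis and cytokinesis, the steps in which a cell condenses and separates its copied chromosomes and then divides, were followed in sorted tumor cells and astrocytes from mouse glioblastoma (GBM) co-cultures. The set held 58 of the 49315 genes in the count table. It was a written list of gene symbols, grouped by function, with no threshold on a measured value, and earlier results of these data were known when it was chosen. All 58 symbols matched a gene ID through GENCODE M21, a gene annotation of the GRCm38 mouse genome. SB28 is a mouse GBM cell line, here expressing GFP and of C57BL6 origin, and it was grown for 2 days with an equal number of primary neonatal astrocytes. The astrocytes came from C57BL6 (mito::mKate2) mice, in which the red protein mKate2 labels mitochondria. After the co-culture, cells were sorted into astrocytes, SB28 cells without astrocyte mitochondria (mKate2-) and SB28 cells that had taken them up (mKate2+), all from the same 3 separate co-cultures. All 3 populations had shared the same medium, which held EGF and FGF, and none received a drug. SB28 is a single line, and no astrocytes or SB28 cells grown alone were analysed here. The labels describe astrocytes stained with CellTrace Violet and GFP+ tumor cells, but their sort gates list the dye with the tumor populations and GFP with the astrocytes, and each library was therefore assigned by its title. Bulk RNA of each population was sequenced, with 24454561, 32707569 and 35135662 counted reads in the astrocyte libraries, 27187348, 35891589 and 29839630 in the mKate2- libraries and 36051914, 39287841 and 34175016 in the mKate2+ libraries. The least counted of the 58 genes had 244 reads in the library where it was lowest.

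Entry into mitosis is driven by CDK1 bound to cyclin A or cyclin B, with the kinases PLK1 and AURKA. Condensin complexes and topoisomerase II alpha then compact the chromosomes, and kinetochores built on the CENP-A nucleosomes of the centromere hold them to the microtubules of the spindle. The spindle assembly checkpoint delays anaphase until every chromosome is attached, after which the anaphase-promoting complex with CDC20 destroys cyclin B and securin, and a contractile ring, placed by the central spindle, cuts the cell apart. Most of these genes are transcribed late in the cell cycle, when the MuvB complex with MYBL2 and FOXM1 acts at their promoters. In bulk RNA, fewer cells in mitosis and less RNA per mitotic cell cannot be told apart.

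Because most of the 58 genes were higher in tumor cells than in astrocytes, as described later, their promoters were read for the elements of cell cycle genes. RefSeq promoter windows (250 bases before to 50 after each start, GRCm38.p6) existed for 49 of the 58 genes and for 27025 genes in all. The element TTTGAA, known as the cell cycle genes homology region and bound by the MuvB complex, was found on either strand in 38 of the 49 genes (77.6%) and in 20.2% of all genes. Its variant TTTAAA was found in 24.5% of the 49 genes and in 14.9% of all genes. CCAAT, the box bound by NF-Y, was found in 79.6% against 41.1%, and GGCGG, a GC-rich element, in 93.9% against 51.2%. TTTGAA and CCAAT were found together in 34 of the 49 genes (69.4%) and in 7.97% of all genes. The motifs have different letters, so no match counts for more than 1 of them, although matches on opposite strands can overlap, as for 1 CCAAT and 1 ATTGG in Ube2c. These are matches of letters, not measured binding. The upstream sequences of the 4 genes with the most reads in SB28 cells among those holding both TTTGAA and CCAAT before the start are shown because they carry the shared elements, which stand in capitals in either orientation (TTCAAA and ATTGG are the reverse complements).
Top2a, chr11:99024197-99024426, minus strand: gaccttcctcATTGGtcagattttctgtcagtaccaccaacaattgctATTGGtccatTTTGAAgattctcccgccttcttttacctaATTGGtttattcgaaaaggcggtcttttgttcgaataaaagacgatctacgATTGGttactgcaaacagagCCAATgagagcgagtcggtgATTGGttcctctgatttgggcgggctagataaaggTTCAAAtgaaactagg
Ncapd2, chr6:125191682-125191773, minus strand: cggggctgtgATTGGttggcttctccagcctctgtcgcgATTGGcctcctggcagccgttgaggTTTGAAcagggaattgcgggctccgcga
Ect2, chr3:27153919-27154002, minus strand: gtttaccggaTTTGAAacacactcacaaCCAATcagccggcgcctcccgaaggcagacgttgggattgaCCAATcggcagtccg
Ube2c, chr2:164769691-164769915, plus strand: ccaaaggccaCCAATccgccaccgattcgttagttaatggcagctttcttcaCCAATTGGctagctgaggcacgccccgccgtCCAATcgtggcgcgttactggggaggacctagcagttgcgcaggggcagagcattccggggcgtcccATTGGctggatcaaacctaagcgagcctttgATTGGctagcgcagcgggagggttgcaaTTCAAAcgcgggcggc

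In the Top2a promoter TTTGAA began 179 bases before the start and again, in reverse, 23 bases before it, among 6 copies of the CCAAT box. Ube2c also had 6 CCAAT boxes and held its TTTGAA in reverse, 29 bases before the start. Ect2 held TTTGAA at 114 bases and CCAAT at 96 and 55 bases before the start. The stretch of Ncapd2 holds TTTGAA at 123 bases and ends before the last of its 3 CCAAT boxes, which lay 48 bases before the start.

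The astrocyte libraries were checked against marker genes. Slc1a3, the glutamate transporter of astrocytes, was at 174, 171 and 228 CPM (reads scaled to library size with TMM factors) in the astrocyte libraries and at 0.608 to 2.34 CPM in the 6 SB28 libraries. Aldh1l1 was at 108 to 166 CPM in astrocytes and below 10 CPM in SB28 cells. Gfap, the classical filament gene, was at only 8.9, 3.31 and 18.8 CPM in the astrocytes, and S100b was at 0.33, 0.355 and 2.09 CPM. The summed level of 15 astrocyte markers was 1273, 1190 and 1964 CPM in astrocyte libraries 1, 2 and 3 and 500.2 to 582 CPM in the SB28 libraries. In the edgeR test described below, 10 of the 13 markers tested were lower in both SB28 populations. Here and for the other cell types, that meant an adjusted P value below 0.05 and a log2 fold change past 1. By the adjusted P value alone 11 were lower, with Sox9 added, at 167 to 182 CPM in astrocytes. The 2 markers that went the other way were Gja1 and Clu. Gja1 was at 170, 205 and 208 CPM in astrocytes and at 237 to 304 CPM in SB28 cells. Clu was at 62.5 to 130 CPM in astrocytes and 94.1 to 141 CPM in SB28 cells, which overlapped. With Sox9, at 74.2 to 110 CPM, these made up most of the SB28 sum.

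Markers of other cells were present to different degrees in the astrocyte libraries. The 10 oligodendrocyte lineage markers summed to 991, 524 and 591 CPM in astrocyte libraries 1 to 3 and to 38.5 to 48.1 CPM in SB28, and 4 of the 6 tested (Olig1, Olig2, Cspg4 and Cnp) were lower in each SB28 population. Olig1 was their most abundant gene at 545, 233 and 294 CPM, whereas the defining genes Sox10, Mag and Mog were at or near 0. The 11 endothelial, mural and fibroblast markers summed to 1485, 1528 and 1151 CPM in astrocytes and to 604 to 815 CPM in SB28, most of it Col1a2, with Cldn5 at or near 0 and 1 of 5 tested, Acta2, called lower in both populations. The 12 microglial and macrophage markers summed to 36.8 to 57.1 CPM in astrocytes and 49.7 to 70.4 CPM in SB28 cells, with Cx3cr1 and Aif1 at or near 0, and 2 of 3 tested, P2ry12 and Cd68, were lower in both populations. Tmem119, at 24.02 to 39.4 CPM in astrocytes and 46.6 to 66.4 CPM in SB28, made up most of that sum. The 10 neuronal markers summed to 56.5 to 98.5 CPM in astrocytes and 39.2 to 48.4 CPM in SB28, with Rbfox3 at 0 throughout. Of the 6 tested, Stmn2, Gad1 and Slc17a7 were lower in both populations. Map2 (lower) and Tubb3 (higher) were past the log2 threshold in mKate2+ cells alone. They did not overlap the astrocytes in mKate2- cells either. Map2 was at 28.2 to 42.8 CPM in astrocytes and 19.9 to 22.0 CPM in mKate2- cells, and Tubb3 at 9.14 to 13.3 and 17.9 to 23.9 CPM. The part of these other cell types in the results below was not tested.

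The genes lowest in astrocytes relative to SB28 were read as a description of possible SB28 RNA there. The gene above 50 CPM in SB28 with the highest ratio was Gpr149, whose astrocyte level was 8.41%, 15.9% and 9.32% of its SB28 level in libraries 1, 2 and 3. Over the 20 genes with the highest ratios, a group chosen after the data were seen, the share was 13.5%, 18.8% and 13.6%. The 58 genes had a summed astrocyte level of 38.4% of the SB28 level. Among the astrocyte libraries, library 2 was the lowest in 34 of the 58 genes and library 3 the highest in 43. The part of SB28 RNA in the astrocyte levels was not tested.

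SB28 cells expressed the mitotic genes at about 2.6 times the level of the co-cultured astrocytes. The summed level of the 58 genes was 2779, 2764 and 3544 CPM in the astrocyte libraries, 8028, 7699 and 8241 CPM in mKate2- SB28 and 8634, 6773 and 7931 CPM in mKate2+ SB28. The means were 3029 ± 446, 7989 ± 273 and 7780 ± 940 CPM (SD, n = 3), so that every SB28 library lay above every astrocyte library and the SB28 populations overlapped. All 58 genes passed the filter on low counts, which asked for more than 1 CPM in any 2 of the 6 libraries of a comparison and could be met by the SB28 libraries alone. The lowest level of any of them in an astrocyte library was 8.61 CPM, for Spc24 in library 2.

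**Figure D1:**
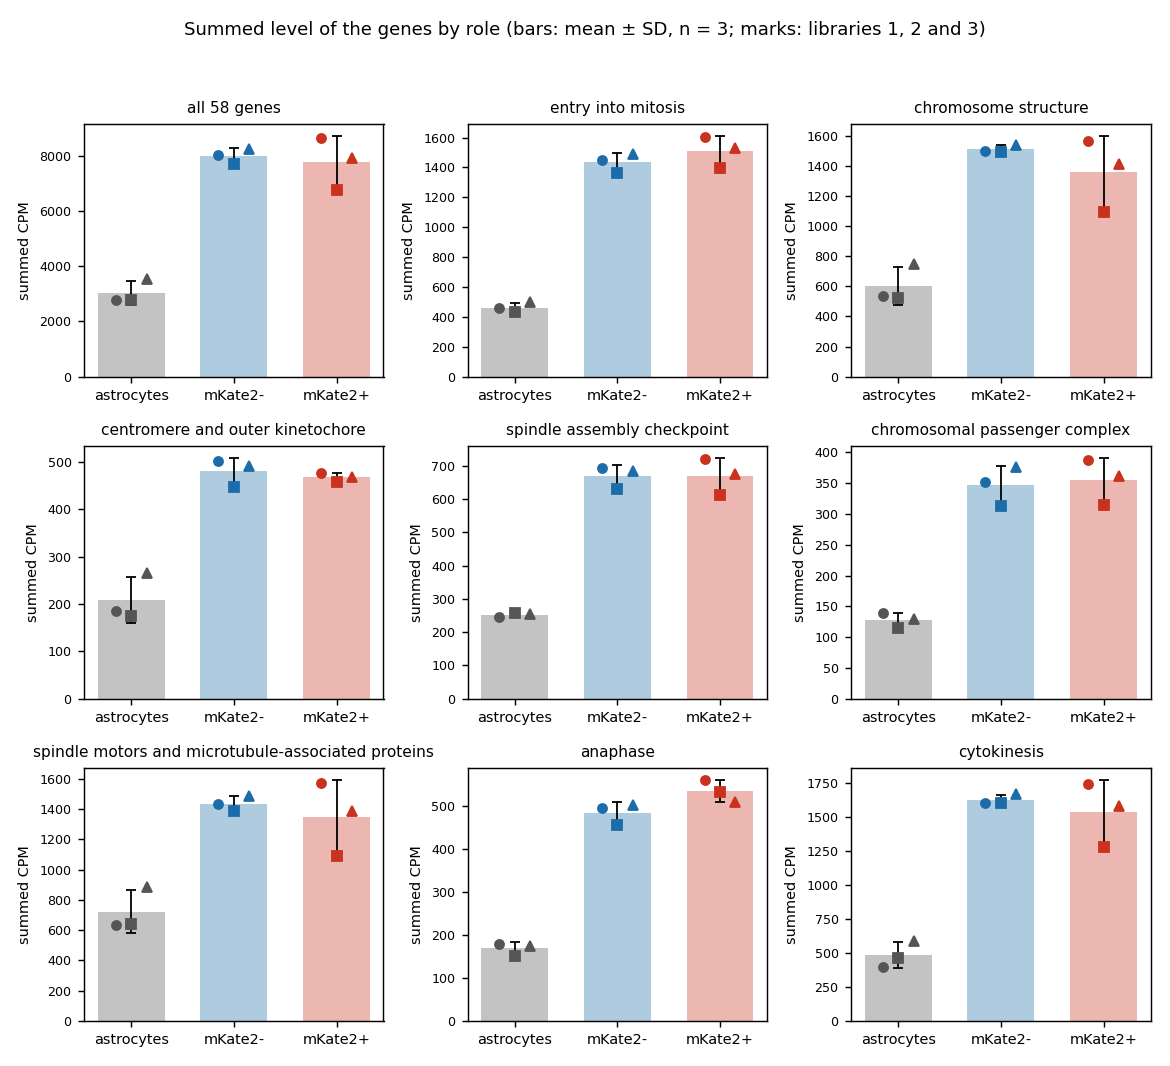
Summed level of the 58 genes and of each role group in CPM (vertical axes, from 0) for astrocytes, mKate2- and mKate2+ SB28 cells. Bars and lines give the mean and SD of 3 libraries and the marks give libraries 1 (circle), 2 (square) and 3 (triangle); in the panel of all 58 genes the astrocytes lie at 2764 to 3544 CPM and the SB28 libraries at 6773 to 8634 CPM.

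Gene by gene, each population of SB28 cells was compared with the astrocytes by edgeR's quasi-likelihood test, with Benjamini-Hochberg adjustment over all genes tested. Both comparisons use the same astrocyte libraries. A gene was called when its adjusted P value was below 0.05 and its log2 fold change was past 1. In mKate2- SB28 cells 47 of the 58 genes were called higher, where 11.5% of all 13356 genes tested were, and 0 were called lower, where 22.4% of all genes were. In mKate2+ SB28 cells 46 of the 58 were called higher against 12.2% of 13342 genes, and 0 were called lower against 22.8%. With the adjusted P value alone, 54 of the 58 were higher and 0 lower in mKate2- cells, against 29.3% and 33.8% of all genes tested. By that measure 52 were higher and 0 lower in mKate2+ cells, where 28% and 32.1% of all genes were.

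The median log2 fold change of the 58 genes was 1.48 in mKate2- cells (2.78-fold), with a range from -0.21 to 2.34, beside a median of -0.04 over all genes tested. In mKate2+ cells the median was 1.43 (2.69-fold), the range -0.15 to 2.30 and the median of all genes -0.02. In 55 of the 58 genes every mKate2- library lay above every astrocyte library, where 34.1% of all genes did so and 36.8% did the opposite. In mKate2+ cells 52 genes were separated in this way, against 33.1% of all genes higher and 35.5% lower, and no member was separated downward in either population. Of the 58 genes, 46 were called in both populations and 11 in neither. Nuf2, a subunit of the NDC80 complex that grips microtubules, was called in mKate2- cells alone, at a log2 fold change of 1.00 ± 0.22 (SE) beside 0.98 ± 0.24 in mKate2+ cells.

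**Figure D2:**
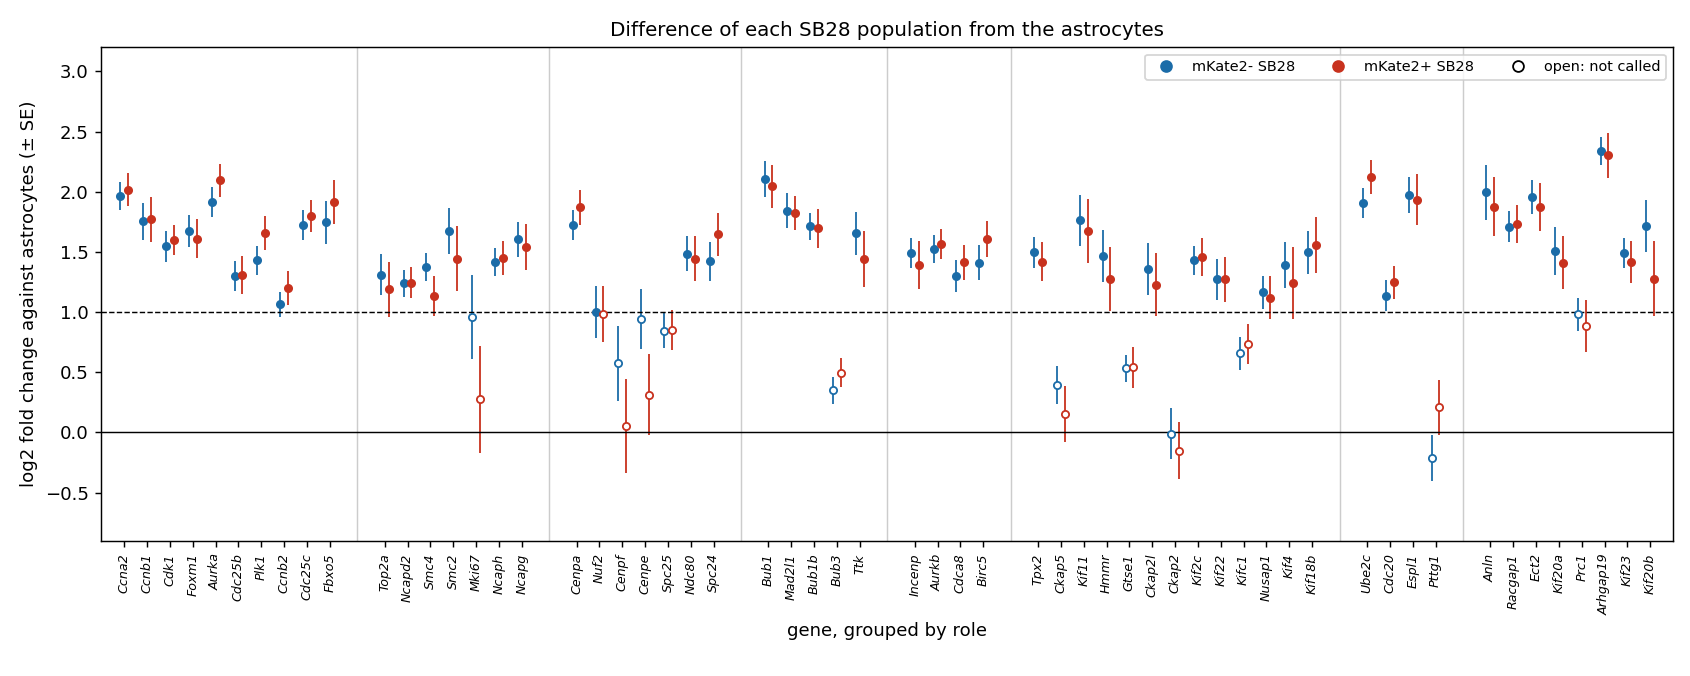
Log2 fold change (vertical axis) of each of the 58 genes (horizontal axis, grouped by role) in mKate2- and mKate2+ SB28 cells against astrocytes. Points are edgeR estimates with SE from 3 libraries per population, filled where called, and the dashed line marks 1; the 11 genes with open points for both populations include Mki67, Cenpe and Cenpf, and Arhgap19 stands highest at 2.34 and 2.30.

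Among the genes of entry into mitosis, 10 of 10 were called higher in both populations, with medians of 1.70 and 1.72 on the log2 scale. Cdk1 (chr10:69335146-69352938, minus strand), the kinase that starts mitosis, was at 64.2, 52.6 and 61.9 CPM in the astrocyte libraries, at 194, 153 and 174 CPM in mKate2- and at 188, 172 and 180 CPM in mKate2+ SB28 cells. Both SB28 populations stood clear of the astrocytes and overlapped each other. Its log2 fold changes were 1.55 ± 0.13 (adjusted P = 5.25e-05) and 1.60 ± 0.12 (adjusted P = 4.68e-05). Ccnb1 (chr13:100778650-100786570, minus strand), the cyclin B that activates CDK1, was at 63.4, 72.4 and 88.8 CPM in astrocytes, 264, 223 and 267 CPM in mKate2- and 291, 211 and 263 CPM in mKate2+ cells. It was 3.37-fold and 3.41-fold higher in the tumor cells (adjusted P = 5.5e-05 and 0.000176), again without overlap with the astrocytes.

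Aurka, the centrosomal Aurora kinase, had the largest mean change of this group. Its levels were 45.0, 35.2 and 35.6 CPM in astrocytes, 150, 140 and 146 CPM in mKate2- and 172, 165 and 157 CPM in mKate2+ cells, with log2 fold changes of 1.92 ± 0.13 (adjusted P = 1.86e-05) and 2.10 ± 0.14 (adjusted P = 2.31e-05). Ccnb2, the other B-type cyclin, had the smallest, at 45.3, 41.1 and 49.1 CPM in astrocytes, 93.4, 96.1 and 93.4 CPM in mKate2- and 94.3, 121 and 96.7 CPM in mKate2+ cells. Its log2 fold changes were 1.07 ± 0.10 (adjusted P = 9.02e-05) and 1.20 ± 0.14 (adjusted P = 0.000285), and the former was 0.98, short of the threshold, with upper-quartile normalization and 0.99 without astrocyte library 2. Both cyclin B genes have an annotated pseudogene copy, Ccnb1-ps and Ccnb2-ps, with which reads could be shared. Ccna2, cyclin A, was close to Aurka at 1.96 ± 0.12 and 2.02 ± 0.14. The phosphatases Cdc25b and Cdc25c, the transcription factor Foxm1, Plk1 and Fbxo5, an inhibitor of the anaphase-promoting complex, lay between 1.30 and 1.92.

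For chromosome structure, 6 of 7 genes were called higher in each population. Top2a (chr11:98992943-99024189, minus strand), topoisomerase II alpha, whose promoter is printed above, was at 163, 174 and 249 CPM in astrocytes, 477, 489 and 481 CPM in mKate2- and 539, 348 and 446 CPM in mKate2+ cells. It was higher by 1.31 ± 0.17 (adjusted P = 0.000367) and 1.19 ± 0.23 (adjusted P = 0.00299) on the log2 scale. The condensin subunits Smc2, Smc4, Ncapd2, Ncapg and Ncaph were all called. Ncapg had the largest mean change of these genes, from 23.3, 28.8 and 33.0 CPM in astrocytes to 90.3, 82.3 and 85.8 CPM in mKate2- and 94.5, 65.9 and 87.6 CPM in mKate2+ cells, or 1.60 ± 0.14 (adjusted P = 6.47e-05) and 1.54 ± 0.19 (adjusted P = 0.000421).

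The exception was Mki67 (chr7:135689784-135716361, minus strand), the gene of the Ki-67 protein that coats mitotic chromosomes and serves as the standard stain for dividing cells. It was at 60.2, 42.2 and 123 CPM in the astrocyte libraries, at 146, 133 and 159 CPM in mKate2- and at 108, 50.02 and 115 CPM in mKate2+ SB28 cells. Astrocyte library 3 lay above every mKate2+ library, and mKate2+ library 2 lay among the astrocytes. The log2 fold changes were 0.96 ± 0.35 (adjusted P = 0.0432) and 0.27 ± 0.44 (adjusted P = 0.612), and neither was called. Without astrocyte library 3 the former rose to 1.52.

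Of the centromere and outer kinetochore genes, 4 of 7 were called higher in mKate2- and 3 of 7 in mKate2+ cells. Cenpa, the histone H3 variant that marks centromeres, changed most, from 51.4, 61.0 and 61.1 CPM in astrocytes to 210, 172 and 189 CPM in mKate2- and 190, 247 and 199 CPM in mKate2+ cells. Its log2 fold changes were 1.72 ± 0.12 (adjusted P = 2.64e-05) and 1.87 ± 0.15 (adjusted P = 5.18e-05). Ndc80 and Spc24, of the complex that binds microtubules, were called in both populations at 1.42 to 1.65. Spc25, a subunit of the same complex, was at 30.01, 23.1 and 31.6 CPM in astrocytes, 53.7, 50.5 and 47.7 CPM in mKate2- and 56.0, 45.4 and 51.5 CPM in mKate2+ cells. The astrocytes did not overlap either tumor population, but at 0.85 ± 0.15 (adjusted P = 0.00156) and 0.85 ± 0.17 (adjusted P = 0.0032) it did not reach a log2 fold change of 1.

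Cenpe and Cenpf, large proteins of the outer kinetochore of which the first is a kinesin motor, resembled Mki67. Cenpe was at 25.1, 21.8 and 43.0 CPM in astrocytes, 56.2, 52.8 and 63.9 CPM in mKate2- and 45.7, 23.4 and 42.9 CPM in mKate2+ cells, and Cenpf at 29.97, 25.2 and 61.6, then 56.1, 55.9 and 61.6, then 53.8, 25.4 and 42.3 CPM. In both genes mKate2+ library 2 lay among the astrocytes, and astrocyte library 3 lay among or above the mKate2+ libraries. The log2 fold changes of Cenpe were 0.94 ± 0.25 (adjusted P = 0.0116) and 0.32 ± 0.33 (adjusted P = 0.437). Those of Cenpf were 0.57 ± 0.31 (adjusted P = 0.14) and 0.06 ± 0.39 (adjusted P = 0.908). Without astrocyte library 3, the mKate2- values were 1.30 for Cenpe and 1.08 for Cenpf, and both passed. These 3 genes are long, with 10061, 8620 and 15433 bases of exon for Mki67, Cenpe and Cenpf. Top2a (9013 bases), Anln (9063), Espl1 (8749) and Mad2l1 (8390) are long as well and were called in both populations. Ckap5 (9462) and Prc1 (8225) are also long and were called in neither. In Ckap5 too, mKate2+ library 2 (139 CPM) lay among the astrocytes. Astrocyte library 3 (207 CPM) lay among the mKate2+ libraries there. Astrocyte library 3 differed from the others by gene length. Relative to the mKate2- mean, genes under 1500 bases had a median log2 ratio of -0.48 in it and genes over 6000 bases 0.01, beside -0.03 and -0.20 in astrocyte library 1 and -0.21 and -0.08 in library 2. Its cytosolic ribosomal protein genes summed to 20743 CPM, beside 33928 and 28652 CPM. With a smooth trend on exonic length removed from every library, Mki67 (1.08) and Cenpe (1.01) were called in mKate2- cells and Cenpf (0.80) was not. The cause of the pattern in these 3 genes and in Ckap5 was not tested.

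Of the spindle assembly checkpoint genes, 4 of 5 were called higher in both populations. Bub1, a checkpoint kinase, rose from 33.4, 49.2 and 41.4 CPM in astrocytes to 180, 176 and 177 CPM in mKate2- and 187, 147 and 178 CPM in mKate2+ cells, a 4.31-fold and 4.12-fold difference (adjusted P = 2.51e-05 and 9.08e-05). Bub3, the partner of BUB1 and BUBR1, differed least, at 118, 105 and 94.6 CPM in astrocytes, 135, 129 and 139 CPM in mKate2- and 157, 151 and 139 CPM in mKate2+ cells. Neither tumor population overlapped the astrocytes, but the fold changes were only 1.27 and 1.41 (adjusted P = 0.0247 and 0.00943). Bub1b, Mad2l1 and the kinase Ttk were called at log2 fold changes of 1.44 to 1.84.

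All 4 genes of the chromosomal passenger complex, which corrects faulty attachments and later marks the cleavage plane, were called higher in both populations. Aurkb, its kinase, was at 34.9, 31.2 and 34.0 CPM in astrocytes, 97.7, 85.5 and 104 CPM in mKate2- and 107, 90.1 and 98.5 CPM in mKate2+ cells. That was 1.52 ± 0.11 (adjusted P = 3.09e-05) and 1.57 ± 0.12 (adjusted P = 4.99e-05) on the log2 scale. Cdca8, which encodes borealin, changed least, from 31.9, 24.1 and 29.7 CPM to 67.9, 67.2 and 74.7 CPM and 82.5, 70.4 and 75.1 CPM, or 1.30 ± 0.13 (adjusted P = 0.000128) and 1.41 ± 0.15 (adjusted P = 0.000177). Incenp, the scaffold, and Birc5, which encodes survivin, lay between 1.39 and 1.61.

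The 13 spindle motors and microtubule-associated proteins were a mixed group, with 9 called higher in each population and medians of 1.36 and 1.24. Kif11, the motor that pushes the spindle poles apart, had the largest mean change, from 33.2, 38.1 and 59.1 CPM in astrocytes to 150, 134 and 158 CPM in mKate2- and 160, 102 and 154 CPM in mKate2+ cells. It was higher by 1.76 ± 0.21 (adjusted P = 0.000273) and 1.67 ± 0.27 (adjusted P = 0.00129). The others called were Kif2c, Kif18b, Kif22, Kif4, Tpx2, Nusap1, Hmmr and Ckap2l. Of these Kif22 and Kif4 have an annotated pseudogene copy (Kif22-ps and Kif4-ps).

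The 4 genes of this group that were not called were Ckap2, Ckap5, Gtse1 and Kifc1. Ckap2, a spindle protein, was at 69.7, 77.0 and 127 CPM in astrocytes, 91.6, 87.2 and 92.0 CPM in mKate2- and 90.8, 71.3 and 84.4 CPM in mKate2+ cells, so the astrocytes spanned the tumor cells and the log2 fold changes were -0.01 ± 0.21 (adjusted P = 0.972) and -0.15 ± 0.24 (adjusted P = 0.603). Ckap5, which encodes a microtubule polymerase, was at 134, 168 and 207 CPM, 224, 218 and 224 CPM and 232, 139 and 194 CPM in the same order, with 0.39 ± 0.16 (adjusted P = 0.0586) and 0.15 ± 0.23 (adjusted P = 0.59). Ckap5 has roles in interphase microtubules as well as in the spindle. Gtse1, a microtubule-binding protein of G2 and mitosis, was at 69.8, 60.2 and 72.8 CPM, 99.5, 90.6 and 103 CPM and 115, 77.0 and 102 CPM, with no overlap with the astrocytes and fold changes of 1.45 and 1.46 (adjusted P = 0.00392 and 0.0276). Kifc1, a minus-end motor, was at 51.0, 37.6 and 50.8 CPM, 72.7, 70.5 and 76.1 CPM and 88.7, 68.1 and 74.8 CPM, also without overlap, with fold changes of 1.58 and 1.66 (adjusted P = 0.0041 and 0.00686).

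Of the anaphase genes, 3 of 4 were called higher. Ube2c, the ubiquitin-conjugating enzyme that works with the anaphase-promoting complex and whose promoter is printed above, rose from 66.2, 55.8 and 50.2 CPM in astrocytes to 221, 206 and 217 CPM in mKate2- and 255, 267 and 228 CPM in mKate2+ cells. Its log2 fold changes were 1.91 ± 0.13 (adjusted P = 1.92e-05) and 2.12 ± 0.14 (adjusted P = 2.64e-05). Its exons overlap 592 bases of Tnnc2 on the other strand, and whether the counting used strand is not given in the sources used here. Exons of Ncapg, Prc1, Cdca8 and Plk1 also overlap another gene, over 944, 911, 232 and 156 bases. In all, exons of 18 of the 58 genes overlap another annotated gene, the longest overlap being 1271 bases between Kif20a and Cdc23, and in Top2a, Ncapd2, Foxm1 and Ckap5 the overlapping genes lie on the same strand. Cdc20 and Espl1, the separase gene, were called at 1.14 to 1.97. Pttg1 (chr11:43420250-43426251, minus strand), the gene of securin, the inhibitor of separase, was low in all populations, at 17.1, 12.6 and 11.4 CPM in astrocytes, 12.5, 10.98 and 11.9 CPM in mKate2- and 13.5, 20.05 and 13.9 CPM in mKate2+ cells. The astrocytes overlapped both SB28 populations, and the log2 fold changes were -0.21 ± 0.19 (adjusted P = 0.368) and 0.21 ± 0.23 (adjusted P = 0.456).

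Of the cytokinesis genes, 7 of 8 were called higher in each population. Arhgap19 (chr19:41766588-41802047, minus strand), a GTPase-activating protein for RhoA, had the largest mean change of all 58 genes. It was at 19.3, 20.1 and 23.2 CPM in astrocytes, 105, 99.2 and 111 CPM in mKate2- and 123, 80.8 and 105 CPM in mKate2+ cells, which was 5.05-fold and 4.94-fold higher (adjusted P = 8.44e-06 and 5.69e-05). Anln, the gene of anillin, a scaffold of the contractile ring, was at 519 to 587 CPM in mKate2- and 449 to 574 CPM in mKate2+ cells against 92.6 to 177 CPM in astrocytes. Ect2, which activates RhoA at the division plane, Racgap1, Kif23, Kif20a and Kif20b were called at log2 fold changes of 1.28 to 1.96. Prc1, which bundles the microtubules of the central spindle, was at 60.7, 56.5 and 79.1 CPM, 130, 125 and 132 CPM and 146, 89.6 and 127 CPM, without overlap with the astrocytes, and stopped just short of the threshold at 0.98 ± 0.14 (adjusted P = 0.000577) and 0.89 ± 0.21 (adjusted P = 0.0089).

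**Figure D3:**
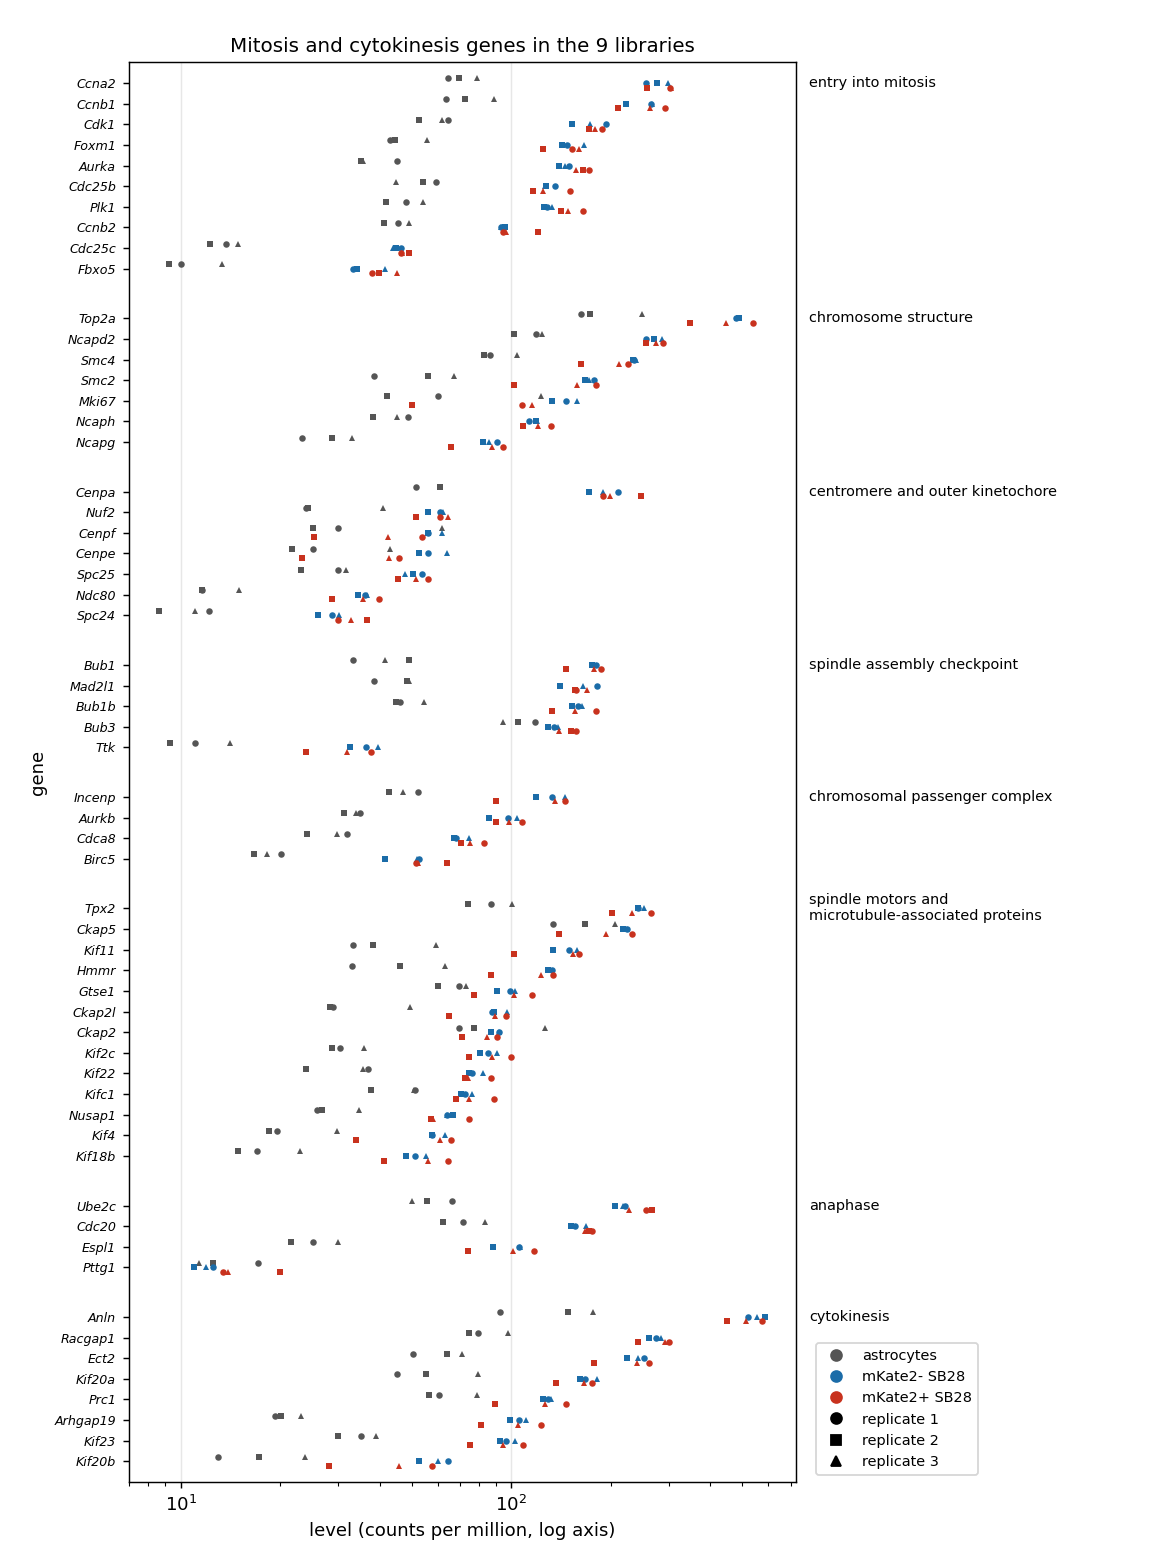
Level of each of the 58 genes (vertical axis, grouped by role) in CPM on a log axis in the 9 libraries. Color gives the population and symbol the replicate. Every mKate2- library lies above every astrocyte library in 55 of the 58 genes (34.1% of all genes tested). Every mKate2+ library does so in 52 (33.1% of all genes), the exceptions being Mki67, Cenpe, Cenpf, Ckap2, Ckap5 and Pttg1.

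Levels were compared between genes per kilobase of exon, on the CPM per kilobase scale. The highest in SB28 cells were Ube2c, at 82.6 ± 3.2 in mKate2- and 96.1 ± 7.8 in mKate2+ cells, and Cdc20, at 84.9 ± 4.5 and 91.9 ± 2.1 (SD, n = 3). These neighbours in the order did not differ beyond their spread. Ccna2 followed at 67.9 ± 5.2 and 70.6 ± 6.6. Cdc20 was also the highest in astrocytes, at 38.7. The lowest in SB28 cells was Cenpf, at 3.75 ± 0.21 and 2.62 ± 0.92, and the next lowest were Ndc80 at 5.49 ± 0.17 in mKate2- cells and Cenpe at 4.33 ± 1.41 in mKate2+ cells.

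The question the study asked of the tumor cells was how the uptake of astrocyte mitochondria changes them, which is the comparison of mKate2+ with mKate2- SB28 cells. None of the 58 genes passed an adjusted P value of 0.05 (the smallest was 0.923), and 0 of all 11854 genes tested did (0%), with edgeR as with DESeq2. At an unadjusted P value below 0.05, 2 of the 58 were higher and 2 lower, against 0.759% of all genes higher and 1.27% lower. The study's thresholds for genes higher in mKate2+ cells were a change of more than 1.5-fold, a count over 50 and P below 0.05 with no adjustment. Here they were applied in both directions, with the count read as the mean normalized count, and by these criteria 0 of the 58 were higher and 2 lower, where 0.194% of all genes were higher and 0.169% lower. The median log2 fold change was -0.03, with 22 genes above 0 and 36 below, beside 0.00 over all genes. The groups of libraries were separated upward in 4 genes and downward in 4, against 4.19% and 5% of all genes.

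The 2 genes past these criteria were Mki67 and Cenpe. Mki67 was lower in mKate2+ cells by 38.3%, at a log2 fold change of -0.70 ± 0.27 (unadjusted P = 0.0332), and each mKate2+ library lay below each mKate2- library. Cenpe was at -0.64 ± 0.23 (unadjusted P = 0.0226), also with no overlap. Cenpf came next at -0.53 ± 0.23 (unadjusted P = 0.0517). The values given above show that mKate2+ library 2 was by far the lowest in all 3 genes, at 50.02 against 108 and 115 CPM for Mki67. Without it the log2 fold changes were -0.41 for Mki67 and -0.40 for Cenpe, both short of 1.5-fold, and neither passed the criteria. At an unadjusted P value below 0.05 in that fit, 1 of the 58 genes was higher and 3 were lower. Over all 11801 genes tested, 47 were higher and 175 lower. The count of 2 genes also became 0 without mKate2- library 1 or 3 and 1 without mKate2- library 2. Over all genes, 10 to 16 passed higher and 21 to 28 lower in those fits. The populations came from the same 3 co-cultures, but the labels do not say that a library number marks a co-culture. With the number as a block, 3 genes passed, Cenpf (-0.59) being added, while over all genes 13 passed higher and 33 lower. At an unadjusted P value below 0.05 in that fit, 1 of the 58 was higher and 5 were lower, where 0.759% and 2.6% of all genes were.

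At the other end, Pttg1 was highest in mKate2+ relative to mKate2- cells at 0.41 ± 0.17 (unadjusted P = 0.0474), with the largest value, 20.05 CPM, again in library 2. Without mKate2+ library 2, Pttg1 was at 0.19, below Plk1 at 0.26. With all libraries Plk1, the Polo kinase, followed Pttg1. It was at 47.9, 41.8 and 54.2 CPM in astrocytes, at 128, 126 and 133 CPM in mKate2- and at 165, 141 and 148 CPM in mKate2+ cells. Here the mKate2+ libraries all lay above the mKate2- libraries, at a log2 fold change of 0.22 ± 0.08 (unadjusted P = 0.0294). Spc24 was next, at 28.7, 26.1 and 30.2 CPM in mKate2- and 30.03, 36.6 and 32.9 CPM in mKate2+ cells, which overlapped, at 0.21 ± 0.11 (unadjusted P = 0.0847). Of the 4 genes taken as widely used markers, Mki67 is given above and the other 3 differed by less than their SE, at 0.04 ± 0.10 for Cdk1, 0.01 ± 0.13 for Ccnb1 and -0.13 ± 0.15 for Top2a.

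By role, the median log2 fold change was 0.05 for entry into mitosis and 0.15 for anaphase, and 8 of 10 and 3 of 4 genes lay above 0. It was -0.13 for chromosome structure, -0.09 for spindle motors and -0.10 for cytokinesis, with 6 of 7, 10 of 13 and 7 of 8 genes below 0. It was 0.07 for the chromosomal passenger complex and -0.03 for both the centromere and outer kinetochore group and the checkpoint group. Without mKate2+ library 2 the negative medians turned to 0.01 for chromosome structure, 0.03 for spindle motors and 0.04 for cytokinesis, with 4 of 7, 9 of 13 and 5 of 8 genes above 0. Those of the centromere and checkpoint groups turned to 0.05 and 0.01. The roles were not tested against each other.

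mKate2+ library 2 stood apart from the other SB28 libraries. It was the lowest of the 6 in 40 of the 58 genes, whereas mKate2+ library 1 was the highest in 35 and library 3 the lowest in 0. The median log2 ratio of the 58 genes to the mean of the mKate2- libraries was -0.27 in library 2, 0.13 in library 1 and 0.03 in library 3. In library 2 it was -0.14 over the 30 genes of up to 4919 bases of exon and -0.40 over the 28 longer ones. Over all genes above 1 CPM, those under 1500 bases had a median ratio of 0.51 in library 2 and those over 6000 bases -0.17, beside 0.01 and 0.01 in library 1. The cytosolic ribosomal protein genes summed to 68452 CPM in library 2 and to 32808 to 37724 CPM in the other SB28 libraries. With a smooth trend on exonic length removed from every library, the median of the 58 genes between the SB28 populations was -0.02, and Mki67 (-0.64) and Cenpe (-0.59) were still past the criteria. The cause of the departure of library 2 was not tested.

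**Figure D4:**
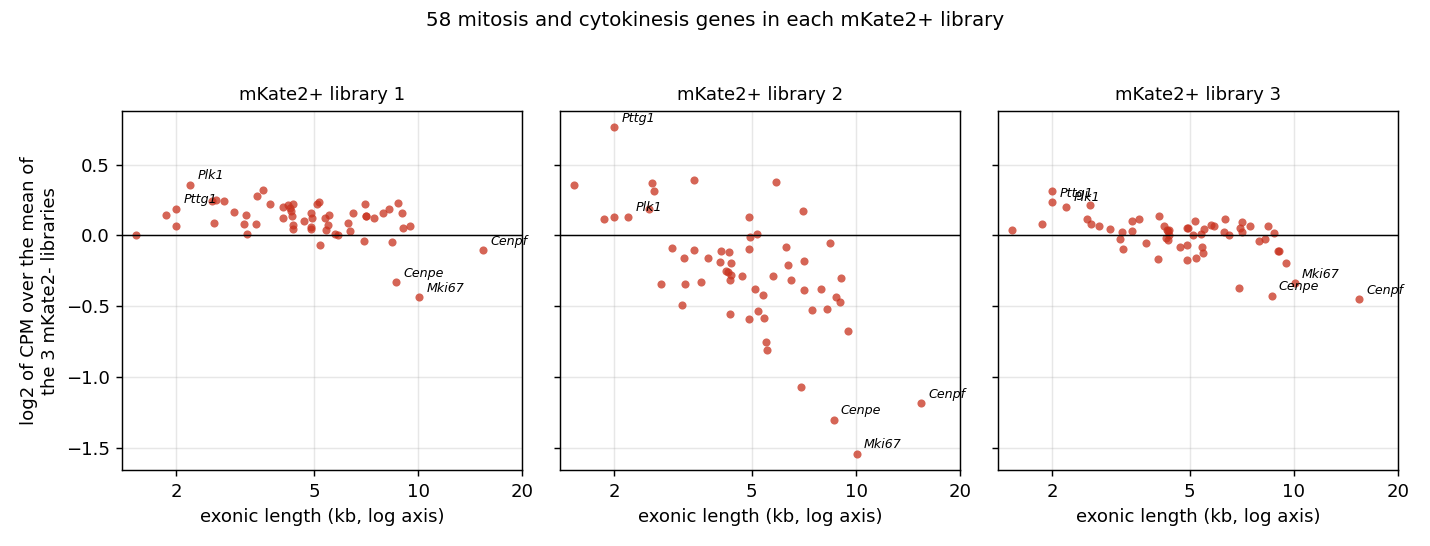
Log2 ratio of each of the 58 genes in mKate2+ libraries 1, 2 and 3 to the mean of the 3 mKate2- libraries (vertical axis), against exonic length in kilobases (log axis). Each point is a gene; most genes lie near 0 in libraries 1 and 3, where Mki67 and Cenpe lie below 0 as well, and values fall with length in library 2, where Mki67, Cenpe and Cenpf are lowest.

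Without mKate2+ library 2 the sign of the comparison changed for much of the set. The median log2 fold change became 0.06, with 43 genes above 0 and 15 below. None of the 58 genes passed these criteria, where 6 of all 11801 genes tested passed higher and 16 lower. No direction can therefore be read for the set as a whole. Without library 1 the median was -0.13 and 4 of the 58 genes were past the criteria, all lower. In that fit 310 of all 11796 genes tested were past them higher and 70 lower.

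**Figure D5:**
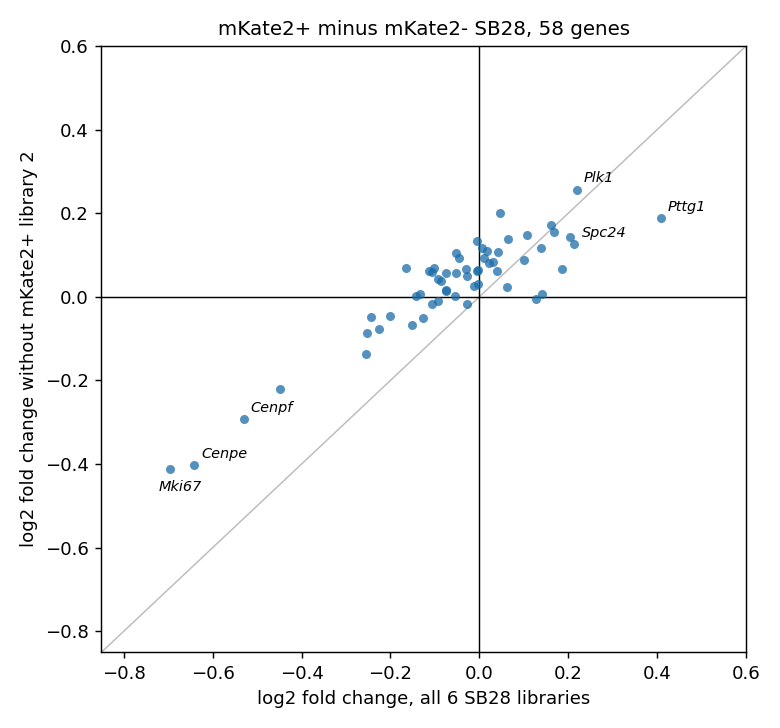
Log2 fold change of the 58 genes between mKate2+ and mKate2- SB28 cells with all 6 libraries (horizontal axis) and without mKate2+ library 2 (vertical axis). Points are genes and the grey line marks equal values; most genes lie above the line, and Mki67 and Cenpe move from -0.70 and -0.64 to -0.41 and -0.40.

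Other genes of cell division were read from 9 lists of 164 genes. For comparison with the counts below, 11.5% of all genes tested were called higher and 22.4% lower in mKate2- cells. In mKate2+ cells 12.2% were called higher and 22.8% lower. In the inner kinetochore and CENP-A loading list, 9 of 17 genes were called higher in mKate2- and 11 of 17 in mKate2+ cells and 0 lower, with Cenpu (log2 fold changes 1.91 and 1.88) and Cenpi (1.81 and 1.73) changing most. In the KMN, RZZ and SKA list of complexes that couple kinetochores to microtubules, 9 of 13 were called higher in each, led by Ska1 (1.94 and 1.97) and Knl1 (1.91 and 1.58). Of cohesin, its regulators and condensin II, 6 of 14 were called higher in mKate2- and 5 of 14 in mKate2+ cells, in which 1 was called lower, Stag2, a cohesin subunit, at -1.08 ± 0.17. Sgo1, shugoshin, which protects cohesin at centromeres (1.92 and 1.83), and Cdca5, which encodes sororin (1.51 and 1.64), changed most there. Of the 8 augmin genes, which branch spindle microtubules, 4 and 6 were called higher, with Haus6 at 1.44 and 1.43 and Haus5 at 1.43 and 1.27.

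Of the 15 subunits and activators of the anaphase-promoting complex, 1 was called higher in each population, near the 11.5% and 12.2% of all genes, and 0 were called lower, with medians of 0.23 and 0.30. By the adjusted P value alone 4 were higher and 2 lower in mKate2- cells, where 29.3% and 33.8% of all genes were, and 4 higher and 0 lower in mKate2+ cells, against 28% and 32.1%. Anapc1, its scaffold, was the gene called, at 1.06 and 1.06, and Cdc16 followed at 0.59 and 0.59, short of the threshold. Of 32 further spindle, centrosome and cytokinesis genes, 25 were called higher in each population and 1 lower. Trip13, the ATPase that disassembles checkpoint complexes, was at 10.5, 11.9 and 9.76 CPM in astrocytes, 65.5, 51.8 and 64.2 CPM in mKate2- and 60.0, 52.4 and 68.1 CPM in mKate2+ cells, 5.66-fold and 5.61-fold higher (adjusted P = 1.31e-05 and 2.39e-05). The gene called lower was Psrc1, a microtubule-binding spindle protein. It was at 145, 113 and 130 CPM in astrocytes, 20.9, 15.8 and 15.2 CPM in mKate2- and 17.2, 15.2 and 11.4 CPM in mKate2+ cells, and its log2 fold changes were -2.90 ± 0.17 (adjusted P = 1.1e-05) and -3.14 ± 0.19 (adjusted P = 1.71e-05).

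Of the DREAM and MuvB genes, whose complexes bind the TTTGAA element printed above, 3 of 12 were called higher in each population and 0 lower. Of all genes, 11.5% and 12.2% were called higher and 22.4% and 22.8% lower. By the adjusted P value alone 7 were higher and 2 lower in each population. Of all genes, 29.3% and 33.8% were so in mKate2- and 28% and 32.1% in mKate2+ cells. The genes called were led by Mybl2, the activating partner, at 12.04, 10.7 and 10.6 CPM in astrocytes, 43.9, 40.2 and 50.1 CPM in mKate2- and 49.8, 38.5 and 54.0 CPM in mKate2+ cells, or 2.01 ± 0.14 (adjusted P = 2.16e-05) and 2.10 ± 0.17 (adjusted P = 6.25e-05), and by E2f4 at 1.57 and 1.58. Lin54, the MuvB subunit that contacts DNA, was the other gene called, at 1.14 and 1.12. Of 38 DNA replication genes, which act in the preceding S phase, 33 were called higher in mKate2- and 34 in mKate2+ cells and 0 lower, with medians of 1.54 and 1.58 beside 1.48 and 1.43 for the mitotic genes. Mcm5, of the replicative helicase (2.17 and 2.26), and Fen1, the flap endonuclease (2.14 and 2.22), changed most.

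Of the 14 G1 cyclins, kinases and inhibitors that passed the filter, 4 were called higher and 3 lower in each population, the latter close to the 22.4% and 22.8% of all genes called lower. Cdkn1a, the gene of the CDK inhibitor p21, was at 745, 696 and 617 CPM in astrocytes, 108, 130 and 86.1 CPM in mKate2- and 124, 160 and 75.1 CPM in mKate2+ cells. Its log2 fold changes were -2.66 ± 0.18 (adjusted P = 1.86e-05) and -2.52 ± 0.27 (adjusted P = 0.000197). Ccne2, a cyclin of the entry into S phase, was higher by 1.96 ± 0.20 and 1.84 ± 0.24. The other genes called higher were Ccne1, Cdk6 and Cdkn2a, and the others called lower were Ccnd1 and Ccnd2. Between mKate2+ and mKate2- cells, 0 genes of these 9 lists passed these criteria or an adjusted P value of 0.05.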

How the data were processed

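The deposited table holds whole-number read counts per gene for 9 libraries. Per the labels and the submitters' processing notes, the authors trimmed reads with Trimmomatic 0.36, aligned them to GRCm38 with STAR 2.5.2b and counted them with featureCounts from Subread 1.5.2. The annotation release and the use of strand are not given in the sources used here. From these counts, a gene entered the test when more than 1 CPM was reached in any 2 of the libraries compared. Testing was done with edgeR 4.0.16 (R 4.3.3; TMM, quasi-likelihood, no covariates) on the 6 libraries of each comparison. P values in the report come from that test unless another fit is named. They are adjusted by Benjamini-Hochberg over all genes unless given as unadjusted. SE is the absolute log2 fold change divided by the square root of F. CPM were scaled over all 9 libraries. The code was tested on simulated data. Replicates of a group were distinct libraries (counts differed beyond sampling noise). DESeq2 1.42.0, upper-quartile normalization, no filter, a fit to all libraries, a length trend, a replicate block and left-out libraries were alternatives.

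The 58 genes and all lists were chosen with earlier results of these data known. Genes given in full were, in each role, those with the largest and smallest mean difference from astrocytes, those called in neither comparison, Mki67, Top2a, Cdk1 and Ccnb1, the 3 highest and 3 lowest between SB28 populations, and 2 per other list. Gene names and lengths are from GENCODE M21, promoters from RefSeq (GRCm38.p6).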

Additional observations from a re-analysis of the deposited data

How the results depend on the processing

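For the 58 genes, the counts called higher against astrocytes, the median log2 fold changes and, between the SB28 populations, the counts by adjusted P value and by the study's thresholds were recomputed under each alternative. Of these values 80 stayed within their limits (1.5 times for a count, 1 SD of the library medians for a median) and 7 went past them. All 7 concern the count of 58 genes past the study's thresholds, applied in both directions, between mKate2+ and mKate2- SB28 cells (2 as reported). It was 0 in a fit to all 9 libraries, 4 with the unadjusted P value alone, and 0 to 4 with each library left out. The median between the SB28 populations stayed within its SD of 0.206 but changed sign without mKate2+ library 2 (0.06), and it was -0.13 without library 1. That SD is of the mKate2+ library medians, among them the low library 2. It is wide beside the median of -0.03, so staying within it says little about stability. Other counts between the SB28 populations moved too. At an unadjusted P value below 0.05, 2 of the 58 were higher and 2 lower as reported, 2 and 4 with DESeq2, 2 and 5 with no filter, 0 and 0 in the fit to all libraries, 1 and 5 with the replicate block, 1 and 3 with the length trend removed, and 0 to 2 and 0 to 8 with each library left out. Log2 fold changes were above 0 for 22 genes and below for 36 as reported, 43 and 15 without mKate2+ library 2, 15 and 43 without mKate2+ library 1 and 16 and 42 without mKate2- library 2. Over all genes the study's thresholds called 23 higher and 20 lower as reported, 62 and 21 with DESeq2, 224 and 35 with no filter, 53 and 28 in the fit to all libraries, 310 and 70 without mKate2+ library 1, 233 and 36 without library 3 and 6 and 16 without library 2. The cause of these changes was not tested. With the replicate block 3 of the 58 genes passed (Cenpf was added) and the median log2 fold change was -0.04, and over all genes 13 were higher and 33 lower. Same-numbered libraries did not deviate together throughout: the correlations of their deviations were 0.054, 0.042 and 0.023 between mKate2- and astrocytes, -0.147, 0.067 and 0.251 between mKate2+ and astrocytes and -0.004, 0.136 and 0.17 between the SB28 populations. Genes near the log2 threshold of 1 against astrocytes crossed it: without astrocyte library 3, Mki67 (1.52), Cenpe (1.30), Cenpf (1.08) and Prc1 (1.14) were called in mKate2- cells. No adjusted P value of the 58 genes between SB28 populations passed 0.05 under edgeR or DESeq2, the smallest being 0.086 with no filter. The planned list of genes at least 100 times higher in SB28 held 0 genes, so the 20 highest ratios were used, a choice made after seeing the data.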
